A study of Drosophila melanogaster with 20 samples.

Results

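The heads of white-eyed female and male flies of Drosophila melanogaster were compared across all genes. The comparison used 10 of the 20 samples of the series, 5 of w- females and 5 of w- males, and 10869 of the 17609 genes in the count table, those that reached 10 counts in 3 or more of these 10 samples. Each sample was a pool of 10 heads from unmated flies aged 1 week. All the flies were progeny of the cross numbered 10 by which the white allele of the Harwich strain was brought into w1118, a laboratory stock with a partial deletion of the X-linked eye color gene white (w). The w- females carried the w1118 allele on both X chromosomes and the w- males on their only X chromosome. The w+ flies of the same cross, used here only where the sex difference was compared between eye colors, carried 1 Harwich copy of w in both sexes, opposite w1118 in females. The sample labels do not state that pools came from separate cultures, so the p-values measure the spread between these pools, which may be technical.

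Flies read their sex from the number of X chromosomes. A pair of X chromosomes switches on Sex-lethal (Sxl), whose protein directs the splicing of transformer and, through it, of doublesex and fruitless, and blocks translation of msl-2. In males msl-2 protein assembles with the noncoding RNAs roX1 and roX2 into the complex that raises transcription of the male X. In the head, much of the known sex difference lies in the fat body, a tissue that lines the head capsule, makes secreted proteins such as the yolk proteins in females, and stores fat and glycogen.

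The total of gene counts per sample ran from 34211100 to 40240201 in w- females and from 34335778 to 38617005 in w- males. Levels are given below as TMM-scaled CPM, counts brought to a common total, always in the order of samples 1 to 5. A fold change is the log2 of females over males, so that a positive value is higher in w- females. The first principal component (58.3% of the variance) separated the sexes, and the second (16.1%) placed w- females 3 and w- males 3 together at its upper end (24.4 and 14.2) and w- females 2, 4 and 5 at its lower end (-16.9 to -13.3). The gene w was at 0.105 to 0.450 CPM in w- females and 0.212 to 0.368 CPM in w- males and did not pass the test (log2 fold change -0.27, standard error 0.35, edgeR adjusted p = 0.56). In the scaling of all 20 samples, w was at 8.43 to 16.6 CPM in w+ flies. Summed over their list, testis markers were at 34.4 and 43.2 CPM in w- males 1 and 4, at 6.68 to 7.26 CPM in the other w- males and at 5.67 to 10.6 CPM in w- females. Summed gut markers were at 413 CPM in w- females 3, against 19.1 to 41.5 CPM in the other 9 samples. The ovary markers were at 56.9 to 63.5 CPM in w- females and 61.1 to 69.9 CPM in w- males, with most of the sum on grk and orb, and the 12 Y-linked genes, mostly male fertility factors, reached at most 0.398 CPM in sum in any sample.

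Expression differed between the sexes in a large part of the genes tested. Of the 10869 genes, 2330 (21.4%) were higher and 2092 (19.2%) lower in w- females at an adjusted p under 0.05 (edgeR quasi-likelihood test, Benjamini-Hochberg), which together were 40.7%. Most differences were small. By at least 1 log2 unit, 288 genes (2.65%) were higher and 100 (0.92%) lower. The yolk protein genes alone took 4.21 to 8.35% of all counts in w- females. When samples were scaled by library size alone, 1182 genes were higher and 5076 lower, and the median of all genes moved by -0.17 log2 units. Small fold changes below are relative to the TMM scale, on which the median of all genes was -0.01. With the samples high in testis markers (w- males 1 and 4) left out, a choice made after the values were seen, 1826 genes were higher and 1570 lower, and without w- females 3 and w- males 3 there were 1964 and 1589. Just inside the filter, the 178 genes with 10 counts in exactly 3 samples had a median level of 0.233 CPM, and just outside it the 395 genes with 10 counts in 2 samples had a median of 0.176 CPM.

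The largest falls in females were those of the roX RNAs. roX1 (lncRNA:roX1, X 3857230 to 3862697 in BDGP6.54, as are all positions below) was at 36.2, 27.8, 35.3, 30.8 and 37.9 CPM in w- females and at 4276, 4139.9, 4182, 3851 and 4112 CPM in w- males (log2 fold change -6.94, standard error 0.10, edgeR adjusted p = 4.0e-13). The groups were far apart, and roX1 was also the most abundant gene among those lower in females by at least 1 log2 unit. roX2 (X 11579065 to 11580432) was at 0.368, 0.210, 0.353, 0.224 and 0.270 CPM in w- females and 60.1, 58.3, 60.2, 56.9 and 55.8 CPM in w- males (log2 fold change -7.66, standard error 0.09, edgeR adjusted p = 1.2e-13). Per kilobase of exon, roX1 in males stood at 752 and roX2 at 42.6 CPM, so the RNA that fell less was the more abundant of the pair. The RNA of msl-2, the subunit that limits the complex to males, was present in both sexes. It was at 40.7, 40.7, 37.3, 34.8 and 41.3 CPM in w- females and 76.4, 73.9, 74.4, 72.2 and 76.0 CPM in w- males, without overlap (log2 fold change -0.94, standard error 0.05, edgeR adjusted p = 2.0e-07).

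Of the 12 dosage compensation genes tested, 0 were higher and 6 lower in w- females (median -0.12). Beside the roX RNAs and msl-2, the genes called were msl-3 (-0.31, adjusted p = 4.9e-04), the acetyltransferase mof (-0.35, adjusted p = 0.0035) and the helicase mle (-0.14, adjusted p = 0.0017). For the remaining subunits and cofactors the differences were smaller, from -0.10 for Unr, which represses msl-2 translation together with Sxl, to -0.03 for the kinase JIL-1, and none passed the test. With library size alone, all 12 members were called lower in females, which includes msl-1 (-0.06 on the TMM scale, adjusted p = 0.41). On that scale 5076 of all 10869 genes were called lower, and the median of all genes was -0.18.

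The sex determination genes differed little in total RNA, although their splicing, which gene counts do not show, is what differs between the sexes. Sxl was at 444, 455, 459, 410.1 and 475 CPM in w- females and 332, 308, 304, 316 and 318 CPM in w- males (log2 fold change 0.51, standard error 0.04, edgeR adjusted p = 8.9e-06). fruitless (fru), which encodes the courtship regulators of the brain, was at 146, 146, 144, 131 and 147 CPM in w- females and 114, 109.8, 113, 112 and 108 CPM in w- males (log2 fold change 0.36, standard error 0.04, edgeR adjusted p = 2.8e-05). Both were higher in every female sample than in any male sample. Of 17 members tested, 3 were higher in w- females, the third being the splicing factor snf (0.18, adjusted p = 0.0046), and 3 were lower: the m6A reader Ythdc1 (-0.25, adjusted p = 7.1e-04), her (-0.19, adjusted p = 0.0011) and fl(2)d (-0.10, adjusted p = 0.024). The shares called, 17.6% in each direction, were near the 21.4% and 19.2% of all genes. The call for fl(2)d was lost without w- females 2 (adjusted p = 0.063), w- males 3 (0.061) or w- males 4 (0.057). For transformer (tra) the value was 0.03 (adjusted p = 0.74), for tra2 -0.06 (0.19) and for doublesex (dsx) 0.08 (0.53). The early X counting genes sisA and sc, and dpn, were below the filter.

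**Figure D1:**
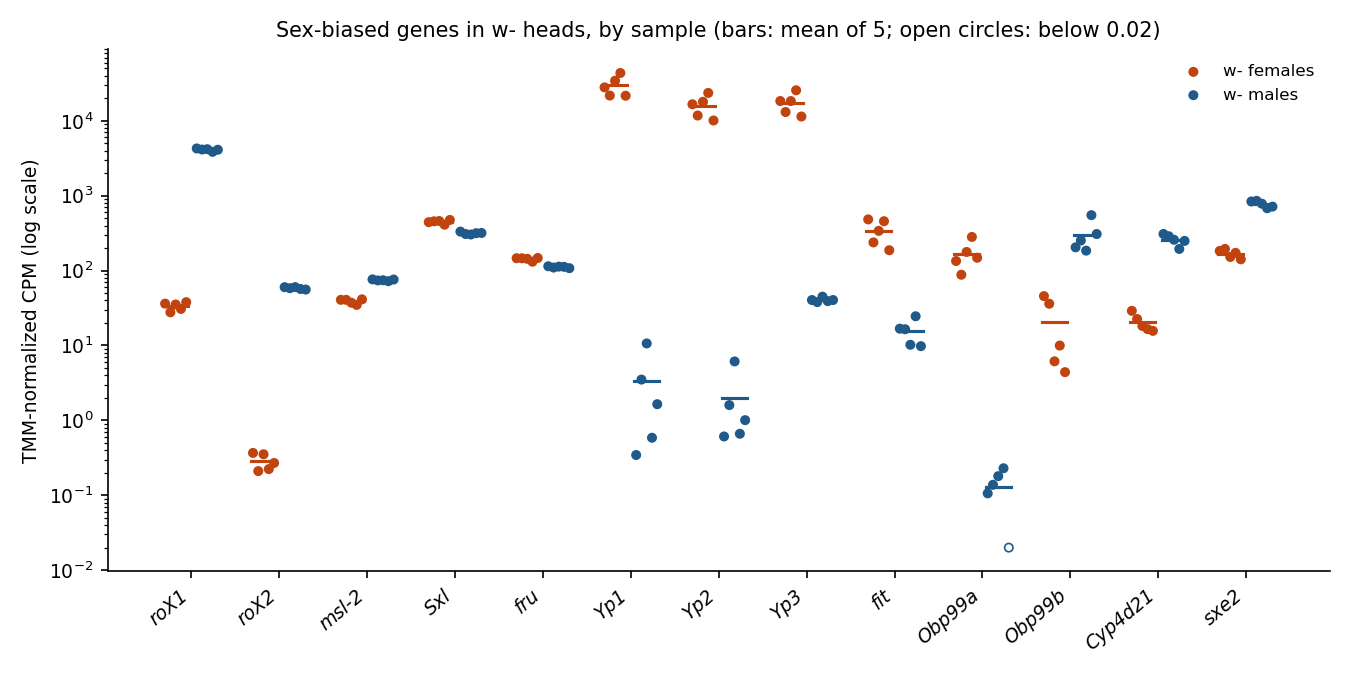
Levels of 13 sex-biased genes in each w- head sample, in TMM-normalized CPM on a log axis, with females in orange and males in blue, 1 point per sample and a bar at the mean of 5. roX1, roX2 and msl-2 stand higher in the 5 male samples, the yolk protein genes, fit and Obp99a higher in the 5 female samples, and Obp99b spreads from 4.41 to 45.7 CPM among females.

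More genes on X than on the autosomal arms were higher in w- females. Of 1797 X-linked genes tested, 559 (31.1%) were higher in w- females, against at most 21.2% on each of the arms 2L, 2R, 3L and 3R. The shares that were lower were close to each other, with 359 of 1797 genes on X, 416 of 2103 on 3L and 529 of 2665 on 3R. The median fold change of X-linked genes was 0.042, against -0.022 to -0.004 on the large autosomal arms. On chromosome 4, 12 of 101 genes were higher and 26 lower (median -0.072). The roX1 RNA, also from X, took 0.408 to 0.454% of counts in w- males and 0.0027 to 0.0037% in w- females. It is kept in the X share that follows. Without the yolk protein genes, X-linked genes took 15.4 ± 0.0873% of counts in w- females and 15.1 ± 0.0644% in w- males (SD, n = 5 each; p = 0.0079 in an exact permutation test, two-sided, which is the smallest value 5 against 5 samples can give; adjusted p = 0.013 over 5 shares and totals tested). The mitochondrial share did not pass the same test (6.54 ± 0.432 against 6.41 ± 0.193% in males; n = 5, exact p = 0.52).

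Of the 100 genes lower in w- females by at least 1 log2 unit, 51 (51.0%) lay on X, which held 16.5% of the genes tested, whereas of the 288 genes higher by that much 63 (21.9%) did. A gene nearly silent in females entered the test only through the male samples, so these counts are a description. With 10 counts required in every sample, 18 of 41 such genes (43.9%) lay on X. The count was 65 of 160 with library size alone and 41 of 73 without w- males 1 and 4. The 51 X-linked genes were weakly expressed. Their median level was 0.874 CPM in males and 0.193 CPM in females, and 4 of the 51 reached 10 CPM in males. Among X-linked genes with a mean under 1 CPM, 33 of 229 (14.4%) were lower in females by at least 1 log2 unit, against 28 of 1111 (2.52%) on the autosomes. Between 1 and 10 CPM the shares were 3.74% and 0.616%. At 10 to 100 CPM such falls were seen in 3 of 826 X-linked and 3 of 4135 autosomal genes. The share of genes called higher in females, by any amount, was greater on X at every level, from 10.0% against 7.38% under 1 CPM to 41.3% against 28.1% at 100 CPM or more.

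Beside the roX RNAs, the X-linked genes with the largest falls were nearly silent in females. CG4586 (X 6969918 to 6972265) was at 0.184, 0.105, 0.147, 0.252 and 0.240 CPM in w- females and 6.21, 5.33, 7.18, 6.37 and 6.36 CPM in w- males (log2 fold change -5.07, standard error 0.17, edgeR adjusted p = 4.3e-09). brv3, which encodes a relative of polycystin channels (X 2622069 to 2624575), was at 0.0263, 0.0263, 0, 0.0839 and 0.0600 CPM in w- females and 1.96, 1.74, 2.16, 1.61 and 2.31 CPM in w- males (log2 fold change -5.53, standard error 0.33, edgeR adjusted p = 6.9e-07). The male samples were all above the female samples for both. fs(1)Yb, a factor of the piRNA pathway in ovarian somatic cells (X 2720468 to 2724158), was at 0.0263, 0.0526, 0.0294, 0.0280 and 0.0300 CPM in w- females, which are 1 or 2 counts per sample, and 1.01, 1.46, 0.952, 0.969 and 1.15 CPM in w- males (log2 fold change -4.92, standard error 0.27, edgeR adjusted p = 3.0e-07).

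Next to fs(1)Yb lie fs(1)Ya, whose protein is needed in the egg nuclear envelope, at a distance of 128 bp, and the meiotic recombination gene vilya at 2520 bp. fs(1)Ya was also lower in females (-4.54, adjusted p = 1.5e-05), and vilya had 1 count over the 5 female samples and 52 over the 5 male samples (48.4-fold higher in males, exact 95% counting interval 8.30 to 1950.0, adjusted p = 9.4e-05), while CG2701 on the other side, 141 bp away on the opposite strand, was at -0.05 (adjusted p = 0.34). The other X-linked genes among the 12 largest falls were Muc14A, a mucin (0.0300 to 0.263 CPM in females and 1.14 to 1.62 CPM in males, -3.37, adjusted p = 3.0e-05), the kinetochore gene Ndc80 (0.0789 to 0.210 and 0.927 to 1.40 CPM, -2.82, adjusted p = 1.0e-05) and the ribosomal RNA pseudogene 18SrRNA-Psi:CR41602 (0.0263 to 0.236 and 1.00 to 1.93 CPM, -3.77, adjusted p = 4.7e-05), whose reads cannot be told apart from those of near-identical rRNA copies. Without w- females 1 its value was -4.47. The gene nod, 340 bp from roX2 and known for its part in meiosis of oocytes, was at -0.82 (adjusted p = 1.3e-04). Of the 6 ovary markers tested, 0 were higher in females and 2 lower, fs(1)N (-1.36, adjusted p = 0.023) and orb (-0.19, adjusted p = 0.042), and both calls were lost when single samples were left out (adjusted p up to 0.054 and 0.10). The share lower was 33.3%, beside 19.2% of all genes.

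**Figure D2:**
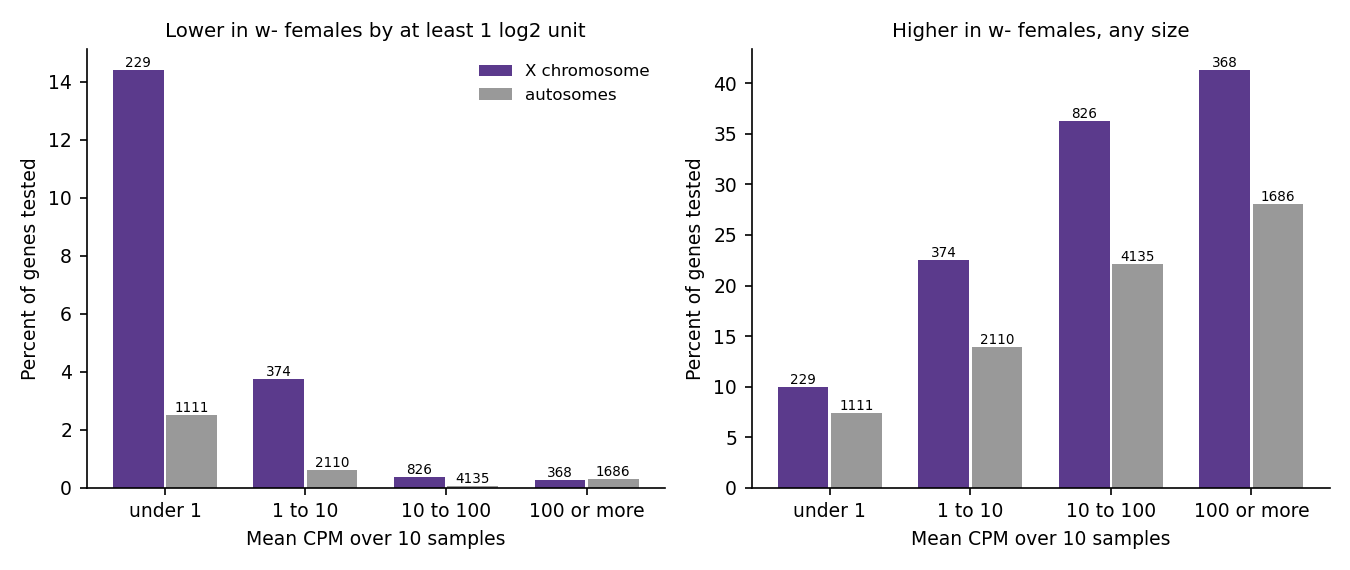
Share of tested genes called (adjusted p under 0.05) as lower in w- females by at least 1 log2 unit (left) or as higher by any amount (right). Shares are in percent, by mean level over the 10 samples. The X chromosome is in purple and the autosomes in grey, with the number of genes tested above each bar. On the left the X bar stands at 14.4% under 1 CPM and at 0.272% at 100 CPM or more, and on the right it rises from 10.0% to 41.3%.

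The yolk protein genes were the most abundant genes among those higher in w- females by at least 1 log2 unit. In pools of whole heads, fewer cells of a type, such as fat body cells, and less RNA per cell cannot be told apart. They encode the lipase-like proteins that the fat body secretes for uptake by oocytes. Yp1 (X 10053811 to 10055498) was at 27966, 21755, 34342, 43538 and 21631 CPM in w- females and 0.345, 3.51, 10.7, 0.586 and 1.65 CPM in w- males (log2 fold change 13.12, standard error 1.20, edgeR adjusted p = 7.8e-05). Its neighbor Yp2, transcribed from the opposite strand 1175 bp away, was at 16646, 11771, 17944, 23583 and 10101 CPM in w- females and 0.610, 1.601, 6.13, 0.663 and 1.01 CPM in w- males (log2 fold change 12.96, standard error 0.94, edgeR adjusted p = 2.4e-05). In both genes w- males 3 was the highest male sample. Without it the fold changes were 14.27 and 14.01. Yp3, some megabases away on X, was at 18396, 13110.3, 18369, 25584 and 11419 CPM in w- females and at a steady 40.5, 37.96, 44.9, 39.1 and 40.5 CPM in w- males (log2 fold change 8.74, standard error 0.27, edgeR adjusted p = 1.2e-07).

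All 3 genes were highest in w- females 4 and lowest in w- females 5. Per kilobase of exon the female means were 18526 CPM for Yp1, 9894 for Yp2 and 9302 for Yp3, beside 15575 for ninaE, the main rhodopsin of the eye. In males the order was different, with Yp3 at 21.7 and Yp1 at 2.08 CPM per kilobase. The antisense RNA asRNA:CR45601, which overlaps Yp1, was at 219, 132, 225, 320.1 and 152 CPM in w- females (log2 fold change 10.07, standard error 0.47, edgeR adjusted p = 1.9e-06). It amounted to 0.608 to 0.782% of the Yp1 level in each female sample, and the part that reads of the wrong strand have in it was not tested. asRNA:CR45629, also on X, had 0 counts in all male samples and 3.91, 4.29, 3.09, 2.99 and 2.94 CPM in w- females, at least 41.6-fold higher than the level of 3 counts per library.

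Of the female fat genes, fit, a secreted protein of the female fat body that acts in satiety, was at 483, 238, 339, 457 and 187 CPM in w- females and 16.8, 16.5, 10.2, 24.6 and 9.80 CPM in w- males (log2 fold change 4.45, standard error 0.39, edgeR adjusted p = 5.1e-05). asRNA:CR45046, which overlaps fit on the same strand, moved with it (4.45 for fit and 4.63 for the overlapping RNA), and their reads cannot be told apart. The remaining members of the list, Fad2 and eloF, which make female hydrocarbons in oenocytes outside the head, were below the filter. Fad2 had 0 counts in every male sample and reached 1.86 CPM in w- females 5 and at most 0.0280 CPM in the other female samples. All 4 members tested were thus higher in w- females.

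A cluster of odorant-binding protein genes on 3R held opposite changes. Obp99a (3R 29671657 to 29672334) was at 134, 88.1, 177, 281 and 148 CPM in w- females and 0.106, 0.138, 0.180, 0.229 and 0 CPM in w- males (log2 fold change 10.28, standard error 0.54, edgeR adjusted p = 3.6e-06). Obp99b (3R 29716254 to 29716896), a male fat body gene under the control of the sex determination pathway, was at 45.7, 36.1, 6.15, 9.98 and 4.41 CPM in w- females and 205, 252, 185, 550.1 and 308 CPM in w- males (log2 fold change -3.87, standard error 0.76, edgeR adjusted p = 0.0042). The sexes did not overlap for either gene, and Obp99b spread widely among female samples. Between them lie Obp99c (0.33, adjusted p = 0.18) and Obp99d (-0.06, adjusted p = 0.81), which did not pass the test. The pickpocket channel genes next to Obp99a were weakly expressed and higher in females, ppk20 with 0.289, 0.158, 0.294, 0.447 and 0.360 CPM in w- females and 0, 0, 0, 0.0255 and 0 CPM in w- males (55 counts against 1, 59.1-fold, exact 95% counting interval 10.2 to 2380.0, edgeR adjusted p = 7.5e-05), ppk19 (2.20, adjusted p = 0.0014) and ppk30 (2.04, adjusted p = 0.0026). They lie within 122 to 2780 bp of Obp99a. Counting intervals here cover counting error only, since the reads carried no molecular identifiers.

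The list of male head fat genes held genes known from the male fat body around the brain and the whole Obp99 cluster. sxe2, a lipase (3R 16083878 to 16087222), was at 183, 195, 152, 173 and 142 CPM in w- females and 838, 854, 782, 680.5 and 716 CPM in w- males (log2 fold change -2.20, standard error 0.10, edgeR adjusted p = 1.6e-07). Cyp4d21 (also called sxe1), a cytochrome P450 that bears on male mating success, was at 29.1, 22.6, 18.2, 16.5 and 15.7 CPM in w- females and 308, 288, 258, 195 and 249 CPM in w- males (log2 fold change -3.67, standard error 0.21, edgeR adjusted p = 3.7e-06). Both were lower in every female sample. Of the 7 members tested, these and Obp99b were lower in w- females and Obp99a was higher (42.9% and 14.3%, beside 19.2% and 21.4% of all genes). takeout (to), a secreted protein of the male head fat body linked to courtship and feeding, was at 110.4 ± 15.1 against 101 ± 9.55 CPM (log2 fold change 0.13, standard error 0.09, edgeR adjusted p = 0.29; SD, n = 5), a difference within the spread of the samples. Beyond the list, Gnmt, which uses up S-adenosylmethionine by methylating glycine, was at 21.7, 7.08, 7.67, 13.3 and 8.91 CPM in w- females and 36.05, 76.7, 32.0, 101 and 86.1 CPM in w- males (log2 fold change -2.50, standard error 0.46, edgeR adjusted p = 0.0027). Cyp313a1, of the P450 family, was at 286 to 402 CPM in females and 813 to 1113 CPM in males (-1.52, adjusted p = 1.3e-05), and CheA87a, of a family of proteins in chemosensory organs, at 0.210 to 0.709 and 1.62 to 4.62 CPM (-2.61, adjusted p = 6.8e-04).

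Genes of fat and sugar metabolism stood higher in females. Of the fat synthesis and storage genes, 16 of 28 tested members were higher in w- females and 1 lower (median 0.29, beside -0.01 over all genes), where 21.4% of all genes tested were higher. With library size alone, 9 were higher and 4 lower (median 0.11). The lipoprotein gene apolpp, whose product carries lipid through the hemolymph, was at 6765, 4973, 7936, 8247 and 4674 CPM in w- females and 2855, 3322, 2918, 4061 and 2645 CPM in w- males (log2 fold change 1.04, standard error 0.19, edgeR adjusted p = 0.0020). FASN1, the main fatty acid synthase, was at 2529, 2174, 3024, 2738 and 1805 CPM in w- females and 1117, 1521, 1389, 1398 and 862 CPM in w- males (log2 fold change 0.96, standard error 0.18, edgeR adjusted p = 0.0025). All female samples were above all male samples for both. The other members with the largest changes were the lipid transfer particle gene Apoltp (1.11, adjusted p = 0.0013) and FASN2 (1.08, adjusted p = 5.4e-05), and the desaturase Desat1 was at 0.78, adjusted p = 0.0019. The member that fell was Lip4 (-0.26, adjusted p = 0.0051), and the lipid droplet lipase bmm (0.33, adjusted p = 0.11) did not pass.

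Of the sugar metabolism genes, 18 of 25 tested members were higher in w- females and 1 lower (median 0.51). The shares were 72.0% and 4.0%, beside 21.4% and 19.2% of all genes. The alpha-glucosidase gene tobi, a target of insulin and adipokinetic hormone signaling, was at 466, 344, 629.6, 1045 and 515 CPM in w- females and 77.1, 101, 86.3, 164 and 109.7 CPM in w- males (log2 fold change 2.48, standard error 0.34, edgeR adjusted p = 5.0e-04). Also higher were fructose bisphosphatase fbp (0.97, adjusted p = 0.0066), the trehalose synthase Tps1 (0.92, adjusted p = 0.0029) and the glycogen synthase Glys (0.54, adjusted p = 7.4e-05), and Pepck2 was the member that fell (-0.99, adjusted p = 0.023 and 0.050 without w- males 1). The digestive amylase Amy-p was at 147 CPM in w- females 3 and at 0.489 to 7.20 CPM in the other 9 samples, and did not pass (4.89, adjusted p = 0.051). Among 21 amino acid and one-carbon genes, 9 were higher and 3 lower (42.9% and 14.3%, beside 21.4% and 19.2% of all genes). Library size alone gave 7 higher and 6 lower, and leaving out w- females 3 and w- males 3 gave 4 and 2. The largest changes beside Gnmt were those of Oat (1.18, adjusted p = 0.0018), pug (1.05, adjusted p = 0.014) and Hpd (0.82, adjusted p = 0.0084). The storage protein gene Lsp2 was at 3615, 979, 2747, 4114 and 1261 CPM in w- females and 338, 311, 449, 977 and 711 CPM in w- males (log2 fold change 2.19, standard error 0.52, edgeR adjusted p = 0.0094), with w- females 2 and 5 near the highest male sample. The abundant X-linked gene CG2233 was at 3424 to 6566 CPM in females and 1651 to 2603 CPM in males (1.23, adjusted p = 0.0015).

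Transcripts of muscle, hemocytes and ribosomes were higher in females, and those of neurons and photoreceptors lower. Of the muscle structure genes, 25 of 31 tested members were higher in w- females and 0 lower (median 0.54). The share higher was 80.6%, beside 21.4% of all genes. Mhc, the muscle myosin heavy chain, was at 2644, 2620.1, 2519.7, 2275 and 2498 CPM in w- females and 1512, 1276, 1368, 1313 and 1327 CPM in w- males (log2 fold change 0.89, standard error 0.06, edgeR adjusted p = 9.9e-07). The Z-disc gene Mlp84B was at 421, 430.0, 456, 425 and 432 CPM in w- females and 175, 169, 182, 159 and 182 CPM in w- males (log2 fold change 1.32, standard error 0.04, edgeR adjusted p = 4.3e-09), with a spread of 13.8 CPM (SD, n = 5) around a female mean of 433 CPM. Mlp60A (0.87, adjusted p = 2.7e-07) and TpnC47D (1.11, adjusted p = 0.0020) were also higher. The flight muscle genes Act88F (0.00), TpnC4 (-0.74) and fln (-0.22) did not pass. Summed over the list, muscle genes were at 13395 to 14589 CPM in w- females and 8850.4 to 9832 CPM in w- males, without overlap.

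Of the hemocyte markers, genes of the circulating blood cells that engulf microbes and debris, 10 of 12 tested members were higher in w- females and 0 lower (median 1.03). The share higher was 83.3%, beside 21.4% of all genes. Hml, a clotting protein, was at 323, 342, 185, 250.2 and 229 CPM in w- females and 114, 127, 66.4, 87.3 and 98.4 CPM in w- males (log2 fold change 1.43, standard error 0.22, edgeR adjusted p = 8.3e-04). The phagocytosis receptor NimC1 was at 73.4, 86.9, 46.2, 64.9 and 57.2 CPM in w- females and 22.5, 25.6, 12.3, 18.4 and 19.5 CPM in w- males (log2 fold change 1.74, standard error 0.22, edgeR adjusted p = 3.2e-04). In both sexes sample 3 was the lowest and sample 2 the highest. The receptors eater (1.85, adjusted p = 2.6e-04) and Sr-CI (1.62, adjusted p = 4.8e-04) were also higher, and the crystal cell genes PPO1 (0.79, adjusted p = 0.14) and PPO2 (0.81, adjusted p = 0.090) did not pass.

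Of the cytosolic ribosomal protein genes, 81 of 82 tested members were higher in w- females and 0 lower, with a median of 0.53 and 79 still higher with library size alone (median 0.36). The share higher was 98.8%, beside 21.4% of all genes. RpL41 was at 749, 706, 881, 947 and 791 CPM in w- females and 455, 463, 456, 443 and 428 CPM in w- males (log2 fold change 0.86, standard error 0.07, edgeR adjusted p = 7.2e-06), followed by RpLP1 (0.75, adjusted p = 2.6e-05), RpS20 (0.74, adjusted p = 2.4e-05) and RpL30 (0.72, adjusted p = 1.6e-05). The summed level was 45107 to 58403 CPM in w- females and 35049.8 to 36238 CPM in w- males. Of the genes of the mitochondrial genome, 4 of 15 were higher and 2 lower (median 0.12), near the 21.4% and 19.2% of all genes. Library size alone gave 0 higher and 3 lower (median -0.05), and the number higher was 8 without w- males 2, 2 without w- males 3 and 1 without w- males 1 and 4. Their extremes were mt:ATPase8 (-0.51, adjusted p = 6.4e-04) and mt:CoIII (0.31, adjusted p = 0.010).

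Of the neuronal markers, 0 of 19 tested members were higher in w- females and 15 lower (median -0.21). The share lower was 78.9%, beside 19.2% of all genes. The synaptic vesicle gene nSyb was at 1367, 1402, 1378, 1386 and 1445 CPM in w- females and 1725, 1604, 1676, 1642 and 1752 CPM in w- males (log2 fold change -0.27, standard error 0.04, edgeR adjusted p = 1.5e-04). The genes of transmitter use Gad1 (-0.33, adjusted p = 3.0e-05), VGAT (-0.30, adjusted p = 8.4e-05) and ChAT (-0.29, adjusted p = 1.1e-04) were lower by a like amount. In phototransduction, 1 of 32 tested members were higher in w- females and 20 lower (median -0.18), which were 3.12% and 62.5%, beside 21.4% and 19.2%. ninaE was at 25133, 25300.5, 23417, 24604 and 25207 CPM in w- females and 30902, 29543, 29413, 28987 and 31068 CPM in w- males (log2 fold change -0.28, standard error 0.04, edgeR adjusted p = 1.5e-04). Rh6, the rhodopsin of R8 cells in yellow ommatidia, was at 302, 300.3, 312, 324 and 381 CPM in w- females and 396, 441, 464, 494 and 557 CPM in w- males (log2 fold change -0.54, standard error 0.09, edgeR adjusted p = 9.9e-04), and Rh4 (-0.45, adjusted p = 1.8e-04), of the R7 cells above them, was lower too. For Rh3 (0.08, adjusted p = 0.19) and Rh5 (0.08, 0.41), the rhodopsins of pale ommatidia, the test was not passed. The member that rose was ninaD (1.47, adjusted p = 0.0010), a scavenger receptor for carotenoid uptake.

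Among glial markers, 3 of 15 tested members were higher in w- females and 3 lower (median -0.12), near the 21.4% and 19.2% of all genes. With library size alone 6 were lower. The members that rose were the blood-brain barrier genes Mdr65 (0.56, adjusted p = 2.0e-04) and moody (0.24, adjusted p = 8.0e-04) and the trehalose transporter Tret1-1 (0.68, adjusted p = 7.4e-05), and those that fell were wrapper (-0.37, adjusted p = 0.0049), Eaat2 (-0.25, adjusted p = 0.0032) and Vmat (-0.19, adjusted p = 0.0010). Vmat, a monoamine transporter gene, is not confined to glia. Of the neuropeptide and insulin-like genes, 5 of 41 tested members were higher in w- females and 19 lower (12.2% and 46.3%, beside 21.4% and 19.2% of all genes). Those that fell included Dsk (-0.49, adjusted p = 7.8e-05), which encodes the drosulfakinins, and Dh31 (-0.42, adjusted p = 3.8e-06). Those that rose included the translation repressor Thor (0.91, adjusted p = 0.0051), the abundant Nplp2 (0.73, adjusted p = 0.021 and 0.051 without w- males 1) and the insulin-like Ilp5 (0.51, adjusted p = 0.0068). Of the monoamine and histamine genes, 2 of 20 tested members were higher in w- females and 8 lower. The share lower was above the 19.2% of all genes, and the share higher was under the 21.4%. With library size alone 2 were higher and 14 lower. The members that fell included the histamine receptor ort (-0.37, adjusted p = 0.0021) and the neuronal tryptophan hydroxylase Trhn (-0.30, adjusted p = 8.3e-04). Those that rose were the tyrosine hydroxylase ple (0.69, adjusted p = 0.020) and Tdc1 (0.56, adjusted p = 0.0037). In the circadian clock 0 of 15 were higher and 2 lower, the peptide gene Pdf (-0.35, adjusted p = 6.2e-04) and the kinase sgg (-0.12, adjusted p = 0.017), and library size alone gave 9 lower. The share lower, 13.3% on the TMM scale, was under the 19.2% of all genes.

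**Figure D3:**
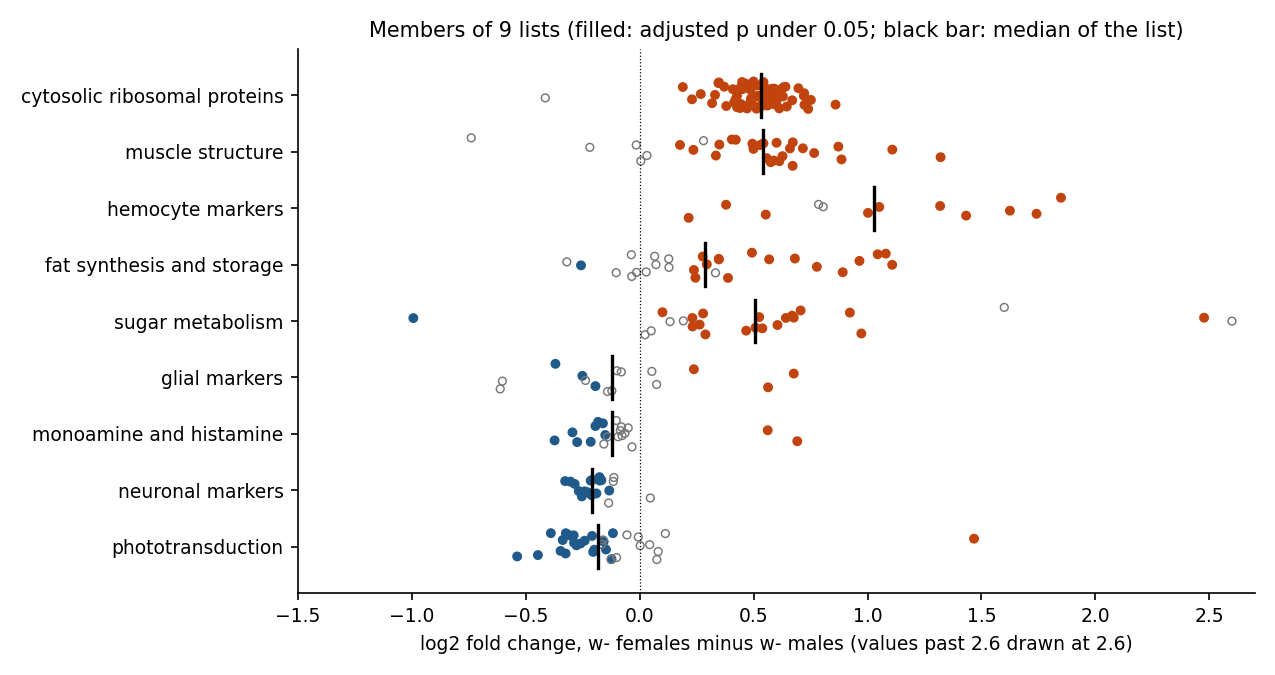
log2 fold change (w- females minus w- males) of each tested member of 9 lists, 1 point per gene, filled where the adjusted p is under 0.05 (orange higher, blue lower) and open otherwise, with a black bar at the median of the list. The medians run from 1.03 for hemocyte markers to -0.21 for neuronal markers, and the ribosomal protein genes lie close together around 0.53.

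Antimicrobial peptides, which the fat body and blood cells secrete when microbes are sensed, were higher in w- females, with a wide spread among them. In this list 12 of 17 tested members were higher in w- females and 1 lower (median 3.81), where 21.4% of all genes were higher. In the fit of all 20 samples 9 of 17 were called higher, without AttA, AttB and Mtk. With 10 counts required in every sample 5 of 9 were (median 1.61). Drs, the antifungal drosomycin, was at 152, 228, 70.4, 31.2 and 35.0 CPM in w- females and 4.35, 5.63, 6.31, 4.97 and 5.01 CPM in w- males (log2 fold change 4.30, standard error 0.65, edgeR adjusted p = 0.0011). AttC, an attacin, was at 74.5, 19.2, 68.3, 53.3 and 32.9 CPM in w- females and 2.25, 3.59, 2.42, 5.48 and 2.06 CPM in w- males (log2 fold change 3.97, standard error 0.47, edgeR adjusted p = 2.4e-04). CecC, a cecropin, was at 3.91, 5.39, 2.59, 0.727 and 3.45 CPM in w- females and 0.0265, 0.0552, 0.0772, 0.0765 and 0.147 CPM in w- males (log2 fold change 5.31, standard error 0.62, edgeR adjusted p = 1.2e-04). Each of these 3 genes was higher in every female sample than in any male sample.

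The diptericins rested more on single samples. DptA was at 189, 1.68, 544, 2.26 and 4.05 CPM in w- females and 0.584, 0.193, 1.36, 1.53 and 0.0491 CPM in w- males (log2 fold change 7.63, standard error 2.16, edgeR adjusted p = 0.023), so that w- females 1 and 3 stood far above w- females 2, 4 and 5, which were close to the highest male samples. Without w- females 3 the value was 6.04 (adjusted p = 0.042), and the call was lost without w- males 1, 2, 3 or 5 (adjusted p up to 0.055). DptB, 1131 bp away, was at 33.5, 4.66, 91.3, 9.28 and 7.71 CPM in w- females and 0.557, 0.442, 0.438, 0.918 and 0.467 CPM in w- males (log2 fold change 5.69, standard error 1.11, edgeR adjusted p = 0.0040), and at 4.60 without w- females 3. AttD was at 4.97, adjusted p = 0.013, and at 3.72 without that sample and 5.69 without w- males 4. Without w- males 1 and 4, 6 of 17 members were called higher (median 4.19), among them DptB, AttC, Drs and CecC, while DptA (8.10, adjusted p = 0.11) and AttD were not. Without w- females 3 and w- males 3, 12 members were called higher, and DptA again was not (6.37, adjusted p = 0.082). The member that fell was Drsl5 (-0.33, adjusted p = 0.0034), a drosomycin-like gene at 455 ± 45.7 against 573 ± 42.7 CPM (SD, n = 5). Summed gut markers were also highest in w- females 3 (413 CPM, against 19.1 to 41.5 CPM), and their part in these values was not tested.

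CG5399 and CG13482 also stood highest in w- females 1 and 3. CG5399 was at 9.69, 0.526, 115, 0.308 and 0.690 CPM in w- females and 0.239, 0.166, 0.180, 0.0510 and 0.0491 CPM in w- males (log2 fold change 7.51, standard error 2.35, edgeR adjusted p = 0.034), and stood at 4.35 without w- females 3. Its call was lost without any 1 of the male samples (adjusted p up to 0.074). CG13482 behaved alike (0.196 to 15.7 CPM in females and 0.0257 to 0.0531 CPM in males, 6.33, adjusted p = 0.022), with 3.77 without w- females 3 and a call lost (adjusted p of 0.050 to 0.057) without single males. CG10814 (1.77 to 25.2 and 0 to 0.0552 CPM, 8.57, adjusted p = 5.7e-04), CG18180 (1.08 to 13.8 and 0.0491 to 0.180 CPM, 5.99, adjusted p = 5.0e-04) and hll, an acyl-CoA synthetase gene (6.89 to 61.9 and 0.0828 to 0.790 CPM, 6.28, adjusted p = 4.8e-04), completed the 12 largest rises. These rises were ranked only among genes without overlap between the sexes. Of the receptors and regulators of peptidoglycan sensing, 4 of 13 tested members were higher in w- females and 0 lower (2 higher and 3 lower with library size alone). The share higher was 30.8%, beside 21.4% of all genes. The largest rises were those of PGRP-SB1 (0.73, adjusted p = 0.043), which lost its call in 7 of the 10 fits without a single sample (adjusted p up to 0.094), and PGRP-LF (0.59, adjusted p = 4.5e-04), an inhibitor of the pathway. The bomanins, short peptides of the Toll response, did not move together (2 of 12 higher, BomT1 at 0.74 and BomS4 at 0.63, and 1 lower, BomBc3 at -0.36). Their shares, 16.7% and 8.33%, were under the 21.4% and 19.2% of all genes.

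**Figure D4:**
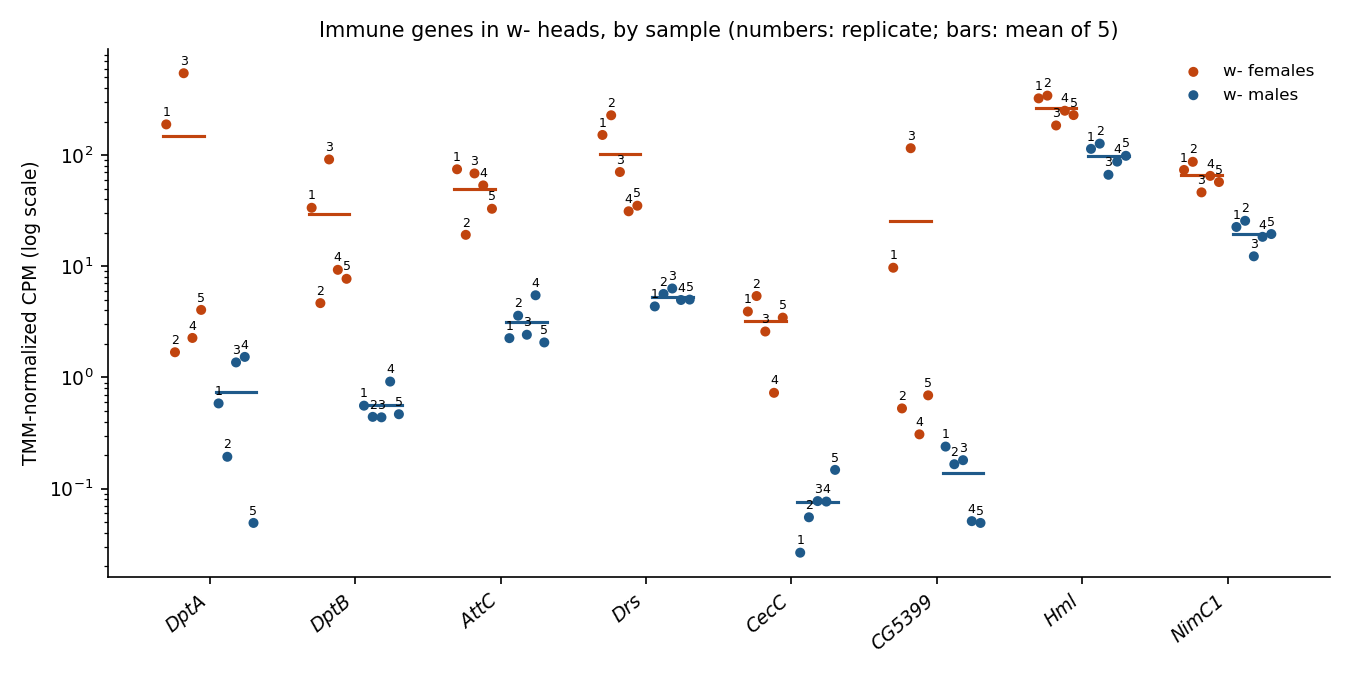
Levels of 5 antimicrobial peptide genes, CG5399 and the hemocyte genes Hml and NimC1 in each w- sample, in TMM-normalized CPM on a log axis, with the replicate number at each point and a bar at the mean of 5. For DptA and CG5399 the points of w- females 1 and 3 stand apart from the other female samples, whereas for AttC, Drs and CecC all female points lie above all male points.

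Of the Turandot and heat shock genes, 2 of 13 tested members were higher in w- females and 3 lower, near the 21.4% and 19.2% of all genes. TotX was at 22.1, 18.6, 24.4, 15.3 and 11.4 CPM in w- females and 69.4, 67.9, 69.5, 63.7 and 58.6 CPM in w- males (log2 fold change -1.84, standard error 0.19, edgeR adjusted p = 7.7e-05), whereas TotM was at 2.73 to 11.6 CPM in w- females and 0.469 to 0.663 CPM in w- males (3.41, adjusted p = 1.7e-04). TotA was at 57.3 ± 42.9 against 118 ± 13.6 CPM (SD, n = 5; -1.04, adjusted p = 0.093). The heat shock genes differed less, with Hsp68 at 0.46, adjusted p = 0.0012 and Hsp67Bc at -0.38, adjusted p = 0.0046.

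Among odorant-binding proteins, 11 of 34 tested members were higher in w- females and 7 lower (32.4% and 20.6%, beside 21.4% and 19.2% of all genes). Obp56e was at 394, 377, 386, 498 and 463 CPM in w- females and 42.7, 33.8, 34.8, 32.3 and 45.9 CPM in w- males (log2 fold change 3.48, standard error 0.13, edgeR adjusted p = 1.1e-07), and Obp83cd at 2.52, adjusted p = 2.3e-05. The odorant receptor genes Or67d and Or47b moved apart. Or67d, the receptor of cis-vaccenyl acetate, was at 6.17, 6.13, 6.29, 5.48 and 5.49 CPM in w- females and 2.39, 3.48, 4.38, 3.29 and 4.13 CPM in w- males (log2 fold change 0.74, standard error 0.14, edgeR adjusted p = 0.0011). Or47b, a receptor for fly odors that promotes male courtship, was at 2.44, 2.26, 1.76, 3.13 and 3.03 CPM in w- females and 3.63, 4.44, 5.97, 4.89 and 4.40 CPM in w- males (log2 fold change -0.89, standard error 0.17, edgeR adjusted p = 0.0013). In both receptors the sexes did not overlap. Of the 20 courtship and pheromone genes tested, 2 were higher and 4 lower, the latter near the 19.2% of all genes and 9 with library size alone. The lower genes included Snmp1 (-0.26, adjusted p = 0.013), whereas ppk23 (0.16), ppk25 (-0.24) and Gr32a (-0.19) did not pass.

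Of the cytochrome P450 genes, 29 of 70 tested members were higher in w- females and 9 lower (median 0.19). The shares were 41.4% and 12.9%, beside 21.4% and 19.2% of all genes. With library size alone 17 were higher and 11 lower. Cyp18a1, which breaks down the steroid hormone ecdysone, was at 24.1 to 42.6 CPM in w- females and 7.59 to 10.3 CPM in w- males (1.87, adjusted p = 1.9e-05). Cyp6d2 (2.09, adjusted p = 2.2e-04) was higher as well, and Cyp4d14 (-1.79, adjusted p = 6.4e-05) lower. In the takeout family, whose members resemble juvenile hormone binding proteins, 8 of 20 tested members were higher in w- females and 1 lower (5 higher and 2 lower with library size alone), with Jhbp12 (0.94, adjusted p = 6.3e-06), Jhbp14 (0.84, adjusted p = 0.0017) and Jhbp1 (0.67, adjusted p = 3.0e-05) higher and dyw (-1.31, adjusted p = 5.0e-05) lower. Of the accessory gland markers 2 were tested and Est-6, which is also made outside the gland, was higher in females (0.57, adjusted p = 1.3e-04).

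**Figure D5:**
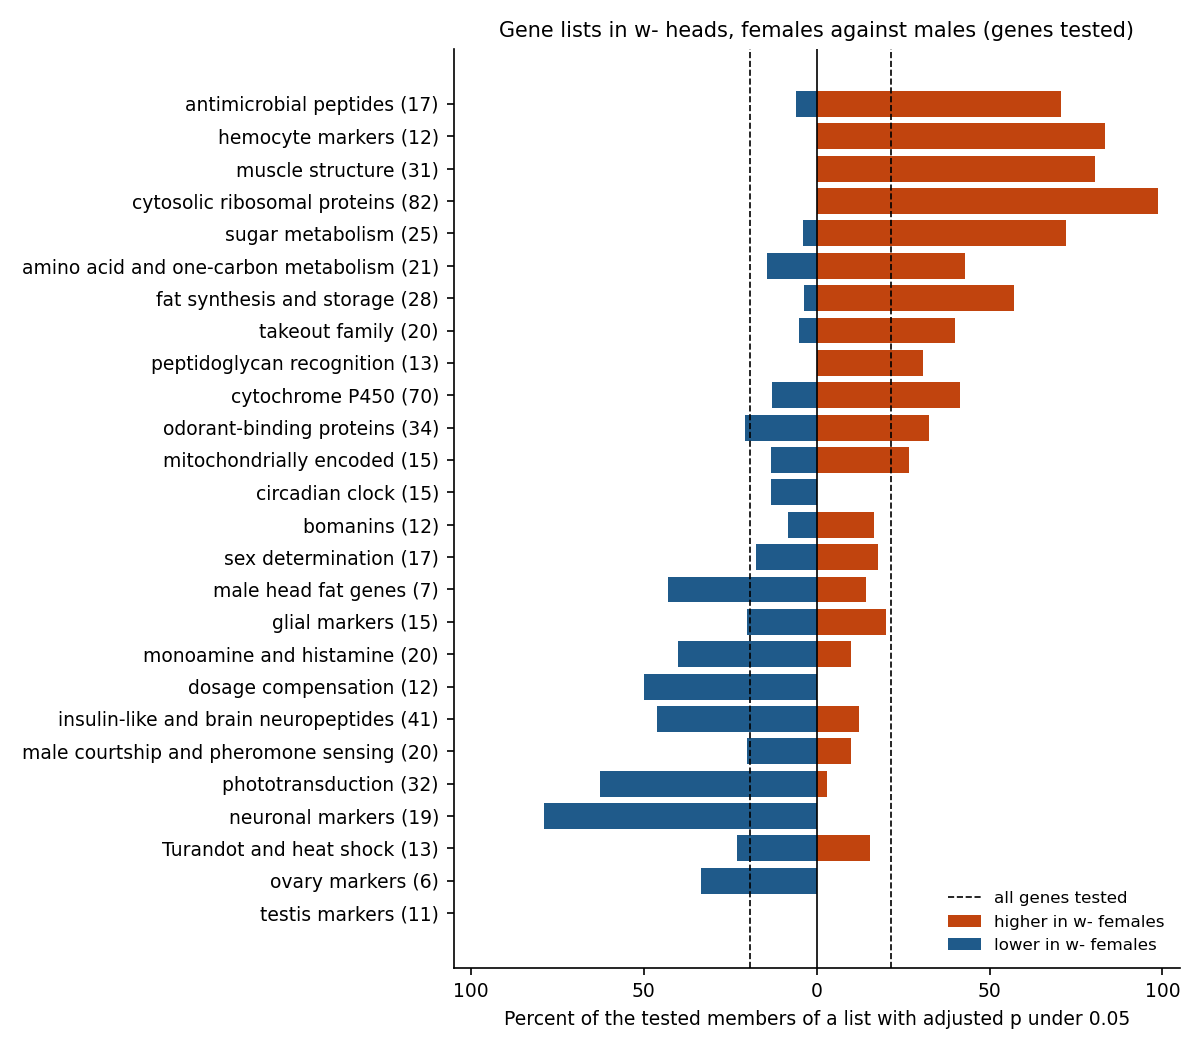
Share of the tested members of each list with 6 or more of them, in percent, that were higher (orange, right) or lower (blue, left) in w- females at an adjusted p under 0.05, ordered by the median fold change, with the number tested in brackets and dashed lines at the shares over all genes tested (21.4% and 19.2%). Ribosomal, hemocyte, muscle, sugar metabolism and antimicrobial genes have the longest bars on the right, neuronal and phototransduction genes on the left.

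The sex difference was then set beside that of the red-eyed flies of the same cross. In w+ flies, 3150 of 10937 genes tested (28.8%) differed between the sexes, 1845 higher and 1305 lower in females. In the same direction, 2545 genes were called in both eye colors, which is 57.6% of the w- calls and 80.8% of the w+ calls, and 2 genes were called in opposite directions. These comparisons share no samples. The difference between the sex differences was tested as an interaction over all 20 samples, and 3 of 11423 genes (0.0263%) passed, with 631 at an unadjusted p under 0.05 (5.52%), whereas DESeq2 called 16.

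All 3 genes lie on the X chromosome, as does w (X 2790599 to 2796466), so that eye color cannot be told apart here from other alleles linked to w in the cross. The w+ females were heterozygous at w, whereas the w+ males carried the Harwich copy alone, and the part of this difference in the interaction was not tested. CG4020, annotated at X 5905746 to 5908001, was at 2.64 ± 0.462 CPM in w- females and 0.474 ± 0.0890 CPM in w- males, but at 23.2 ± 9.03 CPM in w+ females and 37.1 ± 6.75 CPM in w+ males (SD, n = 5 each, in the scaling of all 20 samples). Its sex difference was 2.48 in w- and -0.68 in w+ flies, which differ by 3.16 (standard error 0.37, edgeR adjusted p = 7.7e-04). APC7, for a subunit of the anaphase-promoting complex (X 6597088 to 6599699), was at 0.677 ± 0.158 and 0.766 ± 0.130 CPM in w- females and males and at 0.779 ± 0.202 and 4.00 ± 0.591 CPM in w+ females and males. The w+ males stood alone, and the interaction was 2.17 (standard error 0.27, edgeR adjusted p = 7.7e-04). FarO, a fatty acyl-CoA reductase of oenocytes (X 2201820 to 2203866, 587 kb from w), was at 5.08 ± 0.391 and 2.54 ± 0.236 CPM in w- and at 7.01 ± 1.55 and 8.74 ± 1.07 CPM in w+ females and males. Its interaction was 1.31 (standard error 0.18, edgeR adjusted p = 0.0029). The next genes in order, CG6656 (-0.57, adjusted p = 0.058) and Atac2 (-0.31, adjusted p = 0.096), are autosomal and missed the threshold.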

How the data were processed

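RNA was measured in 20 pools of fly heads in 4 groups of 5, and the 10 pools of w- flies were compared here. Per the paper's methods, the authors extracted RNA with Trizol, made Kapa mRNA libraries for Element AVITI sequencing, trimmed the reads with Trim Galore 0.6.1, and aligned them with STAR. The deposited values are raw counts per gene, which the study's supplementary code takes from the column of counts on the second read strand. The authors also deposited 2 tables of normalized counts, each holding 1 sex with its own size factors, and these were not used. 17597 of 17609 gene IDs were found in the BDGP6.54 annotation, the source of symbols and positions.

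Counts were scaled by TMM and tested with the edgeR 4.0.16 quasi-likelihood test (R 4.3.3, limma 3.58.1) without a block, on genes that reached 10 counts in 3 or more samples, with Benjamini-Hochberg adjustment over all genes tested and a threshold of 0.05. The w+ flies were tested in the same way, and the interaction of sex and eye color in a fit of all 20 samples. The biological coefficient of variation was 0.136 in the w- fit. No 2 samples of a group were copies (chi-square per degree of freedom of 15.0 to 144). A count of 0 allows up to 3 counts, or 0.0737 to 0.0900 CPM in a library.

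The 30 gene lists (737 of 748 symbols matched) and the genes compared were chosen with earlier results of these data known. The genes named were the 12 with the largest changes in each direction among those called, not overlapping between the sexes and at 1 CPM or more in the higher sex, the 5 most abundant in each direction that changed by at least 1 log2 unit, up to 4 called members of each list, every member of the dosage compensation, sex determination, yolk and male head fat lists, the 5 genes with the smallest interaction p, and w. Other genes, such as Lsp2, ninaE, AttC, Drs, Amy-p, BomBc3, PPO1, nod, the ppk genes and the neighbors of fs(1)Yb and fit, were chosen after their values were seen. Alternatives were DESeq2 1.42.0, other scalings and filters, a replicate block, all samples in 1 fit, a minimum change and left-out samples.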

Additional observations from a re-analysis of the deposited data

Results flagged for a closer look

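In 8 of 98 groups of 5 samples tested, the highest or lowest sample stood apart by Dixon's criterion (critical value 0.71), where chance gives about 1 in 20. Among w- females, fru was lowest in sample 4 (131 CPM), fs(1)Yb highest in sample 2 (0.0526 CPM, 2 counts), Rh6 highest in sample 5 (381 CPM) and CG5399 highest in sample 3 (115 CPM). Among w- males, Yp2 (6.13 CPM) and the share of counts on yolk protein genes (0.0066%) were highest in sample 3, and DptB (0.918 CPM) and ppk20 (0.0255 CPM, 1 count) in sample 4.

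The sex difference differed between eye colors by the interaction test in 3 genes, by 1.31 log2 units in FarO, 3.16 in CG4020 and 2.17 in APC7 (w- minus w+).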

How the results depend on the processing

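Over 147 named genes and 20 alternatives, 2743 of 2917 values stayed on their side of the threshold, 160 no longer passed and 13 passed anew. For 1 called gene the sign changed, PGRP-LC at -0.01 with library size alone (adjusted p = 0.91). Genes that were not called could also change sign near 0, as tra did (-0.01 to 0.07 with single samples left out). Of 1160 counts over gene lists, 117 moved by more than 1.5 times. With library size alone, 1182 genes were called higher and 5076 lower, and the medians of the Obp (-0.01), circadian clock (-0.16) and mitochondrial (-0.05) lists turned negative. A required change above 1 log2 unit left 111 genes (77 higher and 34 lower), and 10 counts in every sample left 236 changed by at least 1 log2 unit. DESeq2 called 16 genes for the interaction. Leaving out single samples gave 3895 to 4455 calls. The labels do not say what the replicate numbers mark, although the study fitted each sex alone with the replicate number as a block. The samples were not taken as paired here because not every same-numbered pair was alike (correlations of -0.035 to 0.42, mean 0.27). Samples of different numbers had a mean correlation of -0.065. That 8 of 10 samples were closest to their own number is a hint of pairing from the data. The replicate block gave 2448 genes higher and 2170 lower, put 52 of 143 genes lower by at least 1 log2 unit on X, and called 7 mitochondrial genes higher and 6 glial and 5 testis markers lower. With the block the edgeR adjusted p moved both ways, from 8.3e-04 to 1.1e-07 for Hml and from 7.8e-05 to 0.0011 for Yp1. The depth does not resolve changes of genes near 3 counts per library.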
